A study of Mus musculus with 4 samples.

Results

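The cells described here are Gja4 Gja5 double-positive endothelial cells of the mouse aorta-gonad-mesonephros region at embryonic day 10.5. They were picked cell by cell from raw counts of unique molecular identifiers (UMIs), the tags that each mark 1 captured RNA molecule. A member had at least 1000 detected genes, under 10% of its UMIs from mitochondrial genes, and at least 1 UMI each of Cdh5 (VE-cadherin, the adherens junction protein of endothelium), Gja4 and Gja5. It had 0 UMIs of Htra1, of Nkx2-3 and of Runx1. The rule kept 1323 cells of 18576 Cdh5-positive cells and of 20836 cells of all kinds that passed the cell filter. They came from 2 libraries of mir-223 knockout embryos (KO, genotype mir-223 -/-), with 197 and 455 members, and 2 libraries of wild-type embryos (WT), with 103 and 568 members. All 4 libraries were CD31-positive, CD45-negative cells sorted at the same age and read with the 10x Genomics 3' kit, version 3. CD31 marks endothelium and CD45 most blood cells, so the sort itself removed most CD45-bearing blood.

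Arteries and veins are laid down as distinct endothelial types before birth. In the arterial type, VEGF signalling and the Notch pathway, in which the ligands Dll4, Jag1 and Jag2 on one cell activate Notch receptors on its neighbour, switch on the Hey repressors and the connexins Cx37 (Gja4) and Cx40 (Gja5), which form gap junctions between endothelial cells. SoxF factors act upstream of Notch in arteries, and Nr2f2 (COUP-TFII) represses the arterial programme in veins. At this stage the dorsal aorta of the aorta-gonad-mesonephros region also holds Runx1-positive hemogenic endothelium, from which blood stem cells bud, and the rule leaves such cells out. miR-223 is a microRNA best known from granulocytes.

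Sequences of the deleted microRNA and of the start regions of 4 genes that mark the cells are shown for orientation, since Gja4 and Gja5 define the members and Unc5b and Vegfc were high in them. The mature 3p strand of the microRNA comes from chrX:96242884-96242905, plus strand, and its seed, bases 2 to 8, is in capitals. Each start region holds 250 bases before and 50 bases after the annotated start. All come from RefSeq tables of GRCm38.p6, in which Hey1 was not found. Capitals in the start regions mark the SOX core ACAAT on either strand (ATTGT where it lies on the other one). It was in 31.0% of all 32851 RefSeq start regions of that length, so a match is a description only. The core TGGGAA, bound by the Notch partner RBPJ, was searched on both strands too and was in 25.6% of all start regions but in none of these 4.
mmu-miR-223-3p: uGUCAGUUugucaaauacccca
Gja4, chr4:127313990-127314289 (minus strand): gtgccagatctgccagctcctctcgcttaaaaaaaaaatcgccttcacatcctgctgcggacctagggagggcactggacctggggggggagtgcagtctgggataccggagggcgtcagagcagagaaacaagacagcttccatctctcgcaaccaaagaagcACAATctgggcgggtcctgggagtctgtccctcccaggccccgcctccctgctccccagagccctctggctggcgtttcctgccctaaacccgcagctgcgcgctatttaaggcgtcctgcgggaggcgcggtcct
Gja5, chr3:97032152-97032451 (plus strand): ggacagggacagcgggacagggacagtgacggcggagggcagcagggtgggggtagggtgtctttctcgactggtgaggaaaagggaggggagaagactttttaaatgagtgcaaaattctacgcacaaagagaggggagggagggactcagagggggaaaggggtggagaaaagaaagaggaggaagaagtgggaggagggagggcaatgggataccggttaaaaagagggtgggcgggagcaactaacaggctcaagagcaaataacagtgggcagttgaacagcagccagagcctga
Unc5b, chr10:60831532-60831831 (minus strand): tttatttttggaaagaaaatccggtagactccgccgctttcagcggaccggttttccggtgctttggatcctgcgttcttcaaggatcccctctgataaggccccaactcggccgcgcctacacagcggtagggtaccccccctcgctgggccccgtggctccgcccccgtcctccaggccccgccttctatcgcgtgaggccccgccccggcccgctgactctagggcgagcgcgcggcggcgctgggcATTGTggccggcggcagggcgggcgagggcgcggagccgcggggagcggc
Vegfc, chr8:54077282-54077581 (plus strand): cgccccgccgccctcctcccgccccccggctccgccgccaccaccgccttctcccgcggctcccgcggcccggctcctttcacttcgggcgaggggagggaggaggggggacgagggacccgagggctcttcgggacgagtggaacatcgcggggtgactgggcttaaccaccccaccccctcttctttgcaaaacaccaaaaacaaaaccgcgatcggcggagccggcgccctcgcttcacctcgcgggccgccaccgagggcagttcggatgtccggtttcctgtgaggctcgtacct

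The members held 3526591 and 8671201 UMIs in the KO libraries and 3026860 and 10326062 UMIs in the WT libraries. WT replicate 1 was the deepest per cell, with a median of 23704 UMIs per member against 15594 to 16149 in the other libraries. Of the members, 7.61% and 15.6% in KO and 4.85% and 16.7% in WT were scored as doublets, against 6.03% and 8.75% in KO and 3.89% and 10.3% in WT of the other Cdh5-positive cells. They stay in unless said otherwise. No feature of the matrices is named for the microRNA itself, so its loss could not be read from these counts. F630028O10Rik, at chrX:96239926-96243636 on the plus strand, spans its position. This gene had 5 and 7 UMIs in KO members and 0 UMIs in both WT libraries' members, at least 4.38-fold higher in KO against a floor of 3 UMIs over the WT members. It was too low there for the edgeR test. Among other Cdh5-positive cells it had 170 and 207 UMIs in KO and 5 and 30 UMIs in WT, a log2 fold change of 3.66 ± 0.514 SE (edgeR adjusted p = 0.257). Which part of the locus was deleted is not given in the labels, so this gene does not check the genotype. Xist, the RNA of the inactive X chromosome, had 0 UMIs in members of KO replicate 1 and 874 to 2910 in the other libraries. It was seen in 52.7% of members of KO replicate 2 and in 53.4% and 48.4% of WT members. KO replicate 1 thus stood apart in a gene tied to embryo sex, which the labels do not give. The part of this difference in the results was not tested. Of all barcodes, 93 occurred in more than 1 library, and none of these pairs were both members. Separate embryos or litters are not stated for the 2 libraries of a genotype. A p-value here therefore reflects only how far these libraries differ from each other, and that spread may be technical.

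Double-positive cells made up a similar range of the Cdh5-positive cells in both genotypes. Their share was 5.55% (95% exact binomial interval 4.82 to 6.36) and 7.71% (7.04 to 8.42) in the KO libraries, and 5.08% (4.16 to 6.12) and 8.01% (7.39 to 8.66) in the WT libraries. The genotypes overlapped, and the gap between libraries of 1 genotype was larger than the gap between genotypes. The means were 6.63 ± 1.52% in KO and 6.54 ± 2.07% in WT (SD over 2 libraries in each genotype). KO minus WT came to 0.0872 points, with an exact two-sided permutation p of 1.0. With 2 libraries a group this test cannot give a p under 0.33. Without KO replicate 2 the difference was -0.991, and without WT replicate 1 it was -1.378, so its direction rests on single libraries. When each cell was first thinned to 5000 UMIs, the share was 5.53% and 5.87% in KO and 3.92% and 6.20% in WT. The intervals cover counting error only.

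**Figure D1:**
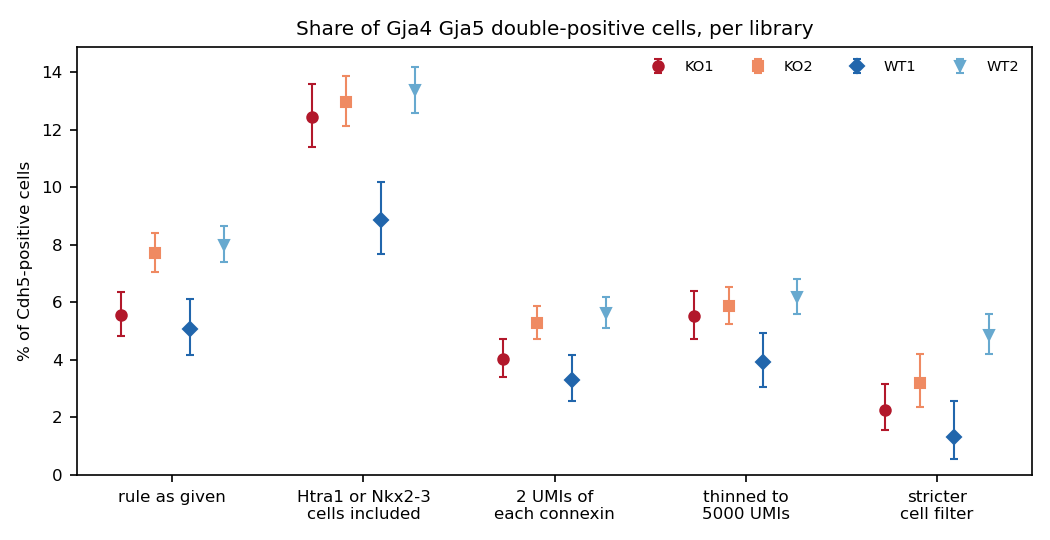
Double-positive cells as a percentage of Cdh5-positive cells, per library, under the rule as given and 4 other settings; bars are 95% exact binomial intervals. Under the rule as given the KO libraries stood at 5.55% and 7.71% and the WT libraries at 5.08% and 8.01%, and in all 5 settings WT replicate 1 was lowest, WT replicate 2 highest and both KO libraries lay between them.

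Arterial markers that the rule did not use were high in members. Gja4 and Gja5 themselves chose the cells and are given only as a description. Members had a median of 12, 11 (KO), 18 and 10 (WT) Gja4 UMIs, and a median of 3 Gja5 UMIs in each library. Between 25.4% and 35.0% of members per library had a single Gja5 UMI, so membership often rested on 1 molecule. Hey1, a Notch-induced transcriptional repressor, reached 215 and 201 CPM in KO and 183 and 183 CPM in WT. CPM are UMIs of a gene per 1000000 UMIs, summed over a library's cells of the set. In all other Cdh5-positive cells Hey1 had 35.1 and 37.2 CPM in KO and 32.8 and 34.5 CPM in WT. Every library showed the same order with no overlap, at a mean log2 ratio of 2.45, range 2.38 to 2.58 over the 4 libraries, computed with 1 CPM added to each value.

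Unc5b, a netrin receptor of arterial and tip endothelium, reached 168 and 186 CPM in KO and 187 and 197 CPM in WT. In the other Cdh5-positive cells it had 27.4 and 34.4 CPM in KO and 28.8 and 34.2 CPM in WT. Vegfc, a growth factor for lymphatic and venous endothelium, reached 222 and 181 CPM in KO and 151 and 180.2 CPM in WT, and 29.5 and 26.8 CPM in KO and 25.9 and 27.9 CPM in WT in the other cells. Both genes were thus over 5-fold higher in members in each library, with log2 ratios of 2.53, range 2.40 to 2.66 and 2.68, range 2.50 to 2.87. All of Hey1, Unc5b and Vegfc were detected in 71.6% and 71.2% of KO members and in 79.6% and 71.3% of WT members. None of the 3 were detected in 1.94% to 2.11% of members. These differences carry no test, since expression chose the cells.

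At an equal depth of 5000 UMIs per cell, Hey1 was seen in 66.7% and 60.3% of KO members and in 52.9% and 58.7% of WT members. It was seen in 12.8% to 16.1% of the other Cdh5-positive cells. In mesenchymal cells, with Pdgfra and Col1a1 but no Cdh5 or Pecam1 UMIs, it was seen in 1.90% to 5.48%. Hey1 averaged 9.08 CPM there and 13.1 CPM in Cdh5-positive cells with neither connexin, so the mesenchymal cells cannot be taken as lacking it. Between 1 and 9 members per library were too shallow and were left out. Those mesenchymal cells had median depths of 15646 to 25113 UMIs, near those of the members. Without thinning, Hey1 was seen in 88.4% to 91.3% of members.

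Cells just inside the rule differed from its core in Unc5b and Nr2f2. Members with exactly 1 UMI of each connexin were few, 8 and 14 in KO and 4 and 19 in WT. Their Unc5b was 9.76 and 36.5 CPM in KO and 17.7 and 11.3 CPM in WT, on only 3, 12, 1 and 6 UMIs. Their Nr2f2 was 61.8 and 109.6 CPM in KO and 70.9 and 169.5 CPM in WT, on 19, 36, 4 and 90 UMIs. Members with 2 or more UMIs of each connexin had 202 and 210.0 CPM of Unc5b in KO and 200.3 and 225.2 CPM in WT. The Nr2f2 of this core was 21.1 and 31.2 CPM in KO and 38.7 and 36.1 CPM in WT. Just outside, cells with 1 Gja4 UMI and 0 Gja5 UMIs had 17.4 and 29.4 CPM of Unc5b in KO and 25.3 and 38.4 CPM in WT. Cells kept out by a single Htra1 or Nkx2-3 UMI had 135.1 and 163.7 CPM in KO and 126.0 and 156.5 CPM in WT. In Unc5b, the barely included cells therefore lay with the excluded Gja4-only cells, though on few UMIs. The cells excluded by 1 Htra1 or Nkx2-3 molecule lay near the core in Unc5b. Hey1 in the barely included cells was 13.0 and 54.8 CPM in KO and 195 and 30.1 CPM in WT. In the core Hey1 was 238 and 226 CPM in KO and 177 and 205 CPM in WT, so WT replicate 1 showed no drop in Hey1.

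Past a 2-fold limit, more genes were higher than lower in members relative to the other Cdh5-positive cells. Among 7989 genes with a mean of at least 10 CPM in either set, 183 (2.29%) were at least 2-fold higher in members in all 4 libraries, and 36 (0.451%) were at least 2-fold lower. These counts moved with the settings. They were 32 and 6 under a stricter cell filter (2000 genes, 5% mitochondrial), which left 33 and 49 KO and 8 and 178 WT members. The lower count was 91 with doublets removed, 118 with cells thinned to 5000 UMIs, 75 with 2 UMIs of each connexin, 103 by means over cells and 42 to 57 without 1 library. By any amount, 2832 genes (35.4%) were higher in members in all 4 libraries and 2833 (35.5%) were lower. Of the 27 arterial identity genes at that level, 19 were 2-fold higher in all 4 libraries and the other 8 were higher in all 4 by less. Their median log2 ratio was 1.54, against 0.0021 over all genes. This list overlaps with the rule's genes in kind, so its direction is not independent of the choice of cells.

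Among Notch ligands, Dll4 had 81.7 and 74.5 CPM in KO and 104 and 75.2 CPM in WT in members and 21.4 and 21.01 CPM in KO and 24.7 and 21.2 CPM in WT in the other cells. Jag2 was also higher, at 31.2 to 38.7 CPM in members and 9.88 to 10.7 CPM in the other cells. Jag1, another ligand, was higher by less, at 19.8 to 37.5 and 15.5 to 19.3 CPM. Of the receptors, Notch1 stood at 175 to 186 CPM in members and 75.6 to 86.6 CPM in the other cells, and Notch4, the endothelial receptor, at 70.04 to 97.5 and 28.04 to 36.1 CPM. The feedback gene Nrarp was higher (log2 ratio 1.16, range 1.02 to 1.44), while Hes1, a Notch target in many tissues, was lower (-0.42, range -0.61 to -0.21). Of 18 Notch pathway genes measured at 10 CPM, 13 were higher in all 4 libraries and 2 were lower, beside the 35.4% and 35.5% of all genes.

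The transcription factors split by gene. Sox7 had 146 and 158 CPM in KO and 175 and 134 CPM in WT in members, against 42.96 and 50.5 CPM in KO and 47.4 and 45.1 CPM in WT in the other Cdh5-positive cells, and Sox17 had 222 to 244 against 89.7 to 100.3 CPM. Sox18, another SoxF factor, differed less, with a log2 ratio of 0.74, range 0.62 to 0.87. Mecom (Evi1), a zinc finger factor of arterial and hemogenic cells, had 238 and 267 CPM in KO and 215 and 273 CPM in WT in members and 50.3 and 62.3 CPM in KO and 43.3 and 61.95 CPM in WT in the other cells, a log2 ratio of 2.18, range 2.08 to 2.28. The ETS factors Erg and Ets1, general to endothelium, did not keep one direction over the libraries, with mean log2 ratios of 0.17 and 0.09. Tox2, a high mobility group protein, had 10.7 to 12.6 CPM in members against 1.32 to 1.77 CPM.

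Signalling genes on the cell surface split as well. The semaphorin and VEGF co-receptor Nrp1 had 477 to 549.5 CPM in members and 169.7 to 189.6 CPM in the other cells, and its relative Nrp2, a venous and lymphatic co-receptor, had 34.03 to 41.3 CPM against 91.9 to 125 CPM. The ephrin Efnb2, the classic arterial surface ligand, had 159 to 203 CPM in members and 48.5 to 65.1 CPM in the other cells. Its receptor Ephb4, a venous marker, was nearly level, with a log2 ratio of 0.20, range 0.12 to 0.28. VEGF receptors differed modestly: Flt1 by 0.90, Kdr by 0.38 and Flt4, the receptor of Vegfc, by -0.24 on the log2 scale. Members were thus high in the ligand Vegfc and slightly low in its receptor.

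Cxcr4, the chemokine receptor that guides arterial growth, stood out among the surface genes. It had 49.1 and 49.9 CPM in KO and 60.8 and 60.5 CPM in WT in members, against 4.39 and 5.91 CPM in KO and 5.61 and 6.91 CPM in WT in the other Cdh5-positive cells, a log2 ratio of 3.07, range 2.88 to 3.22. Its ligand Cxcl12 had 8.22 and 23.6 CPM in KO and 14.9 and 26.9 CPM in WT in members and 5.78 and 5.44 CPM in KO and 8.64 and 4.53 CPM in WT in the other cells. Cxcl12 was low in KO replicate 1 and WT replicate 1, so its ratio ran from 0.44 to 2.34 over the libraries. At 5000 UMIs, Cxcr4 was seen in 18.5% to 30.9% of members, in 2.31% to 3.84% of the other Cdh5-positive cells and in 0 to 2.04% of mesenchymal cells.

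Another connexin, Gja1 (Cx43), was at 163 and 134 CPM in KO and 156 and 155 CPM in WT in members and 60.04 and 62.2 CPM in KO and 66.8 and 69.2 CPM in WT in the other cells, a log2 ratio of 1.22, range 1.09 to 1.42. Gjc1 (Cx45), the connexin of early vessels, was slightly lower in all 4 libraries (-0.18, range -0.46 to -0.03). Of the BMP and ALK1 genes, Tmem100, an ALK1 target, had 49.2 to 83.1 CPM in members and 8.59 to 18.9 CPM in the other cells, and the inhibitor Smad6 had 29.7 to 35.9 and 9.76 to 13.4 CPM. The ligand Bmp4 ran the other way, with 6.94 to 13.04 and 24.7 to 33.6 CPM. Cav1, the coat protein of caveolae, was at 190.0 to 283 CPM in members and 39.2 to 71.4 CPM in the other cells. The flow-induced factor Klf2 (0.25) and its relative Klf4 (-0.22) did not keep one direction.

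The basement membrane collagen genes were strongly expressed. Col4a1 had 1025 to 1470.5 CPM in members and 443 to 679 CPM in the other cells, and Col18a1, the source of endostatin, had 741 to 865 and 291 to 321 CPM. Of 19 matrix genes at 10 CPM, 5 were 2-fold higher in all 4 libraries (Ltbp4, Col4a1, Col4a2, Col18a1 and Sparc) and 0 were 2-fold lower. The shares over all genes were 2.29% and 0.451%. Of 19 cholesterol synthesis genes, 16 were higher in all 4 libraries and 0 were lower in all 4, with a median log2 ratio of 0.35. None of these 19 reached a 2-fold difference, and higher by any amount in all 4 libraries was the case for 35.4% of all genes.

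The genes with the largest ratios were not all textbook arterial genes. The rule for naming ranked genes by the log2 ratio of the library nearest to 0. Slc45a4, a transporter gene, had the highest mean ratio of them, with 71.7 and 64.7 CPM in KO and 53.2 and 64.98 CPM in WT in members and 6.24 and 6.06 CPM in KO and 6.36 and 4.93 CPM in WT in the other cells, a log2 ratio of 3.23, range 2.88 to 3.48. Mos, the kinase known from oocyte meiosis, had 15.03 and 15.6 CPM in KO and 16.8 and 12.6 CPM in WT in members and 0.982 and 1.15 CPM in KO and 0.921 and 1.25 CPM in WT in the other cells, and was detected in 19.5% to 35.0% of members. Its log2 ratio was 2.94, range 2.59 to 3.22. T (brachyury), known from the primitive streak, had 10.8 to 13.95 CPM in members and 1.32 to 1.72 CPM in the other cells. Sat1, which breaks down polyamines, had 650.5 and 871 CPM in KO and 640.3 and 854 CPM in WT in members, against 103 and 128 CPM in KO and 100 and 131 CPM in WT in the other cells. Odc1, the rate-limiting enzyme that makes polyamines, was lower, at 126 and 138 CPM in KO and 151 and 129.6 CPM in WT in members and 433 and 437 CPM in KO and 580.4 and 414 CPM in WT in the other cells. The polyamine genes thus lay in opposite directions, at log2 ratios of 2.69 and -1.76.

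The remaining leading genes included Egfl8 (43.1 to 60.5 CPM in members, 4.69 to 7.60 CPM in the other cells), 8430408G22Rik (219 to 260.1 and 23.8 to 47.4 CPM), and the fatty acid elongase Elovl7 (11.2 to 17.3 and 1.25 to 1.66 CPM). The myosin light chain gene Myl9 had 64.9 to 102 CPM in members against 11.1 to 16.5 CPM, the adaptor gene Sorbs2 35.2 to 58.01 against 4.61 to 9.71 CPM, and Rnd1, a small GTPase gene, 13.9 to 20.8 against 1.47 to 2.18 CPM. Dmd (dystrophin) and Npr3, the clearance receptor for natriuretic peptides, had log2 ratios of 2.39 and 2.36. The others were Tmem178, Sdcbp2, Abtb2 and Tox2, each at a mean log2 ratio between 2.33 and 2.61. Several of the leading genes were at a near or higher level in connexin-positive cells with Htra1 or Nkx2-3, which are among the other cells. Against those, Slc45a4 had a log2 ratio of 0.13, range -0.24 to 0.39 and Sat1 of -0.25, range -0.40 to -0.11. The mean ratios were -0.37 for Npr3, -0.19 for Tox2, 0.08 for Tmem178 and 0.16 for Dmd.

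Of 10 venous genes at 10 CPM, 3 were 2-fold lower in members in all 4 libraries (Nr2f2, Nrp2 and Aplnr). Another 2, Vwf and Ackr3, were 2-fold higher, and the median log2 ratio of the 10 was -0.099. Of all genes, 0.451% were 2-fold lower and 2.29% were 2-fold higher in all 4 libraries. Nr2f2 had 24.95 and 35.4 CPM in KO and 42.3 and 46.5 CPM in WT in members and 92.1 and 101 CPM in KO and 111 and 113 CPM in WT in the other cells, a log2 ratio of -1.49, range -1.84 to -1.26. Aplnr, the apelin receptor of venous endothelium, had 56.8 to 84.2 CPM in members against 211 to 253 CPM, and its ligand Apln, a sprouting marker, 8.22 to 10.9 against 21.9 to 33.4 CPM. Other named genes were Lhx6, St8sia1, Prl3b1, Gm13889 and Phgdh, an enzyme of serine synthesis, with mean log2 ratios from -1.45 to -1.75. Dppa5a had a ratio of -2.33, but up to 91.9% of its member UMIs in a library came from 1 cell. All 5 sinusoidal genes at 10 CPM were lower in every library, with a median of -1.33. Of 9 sprouting genes at 10 CPM, 6 were higher in members in all 4 libraries and 2 were lower, with a median of 1.04. Apln was the only one of the 9 that was 2-fold lower in all 4, and Esm1, Dll4, Cxcr4 and Igfbp3 were 2-fold higher. Of all genes, 35.4% were higher and 35.5% lower by any amount in all 4 libraries.

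**Figure D2:**
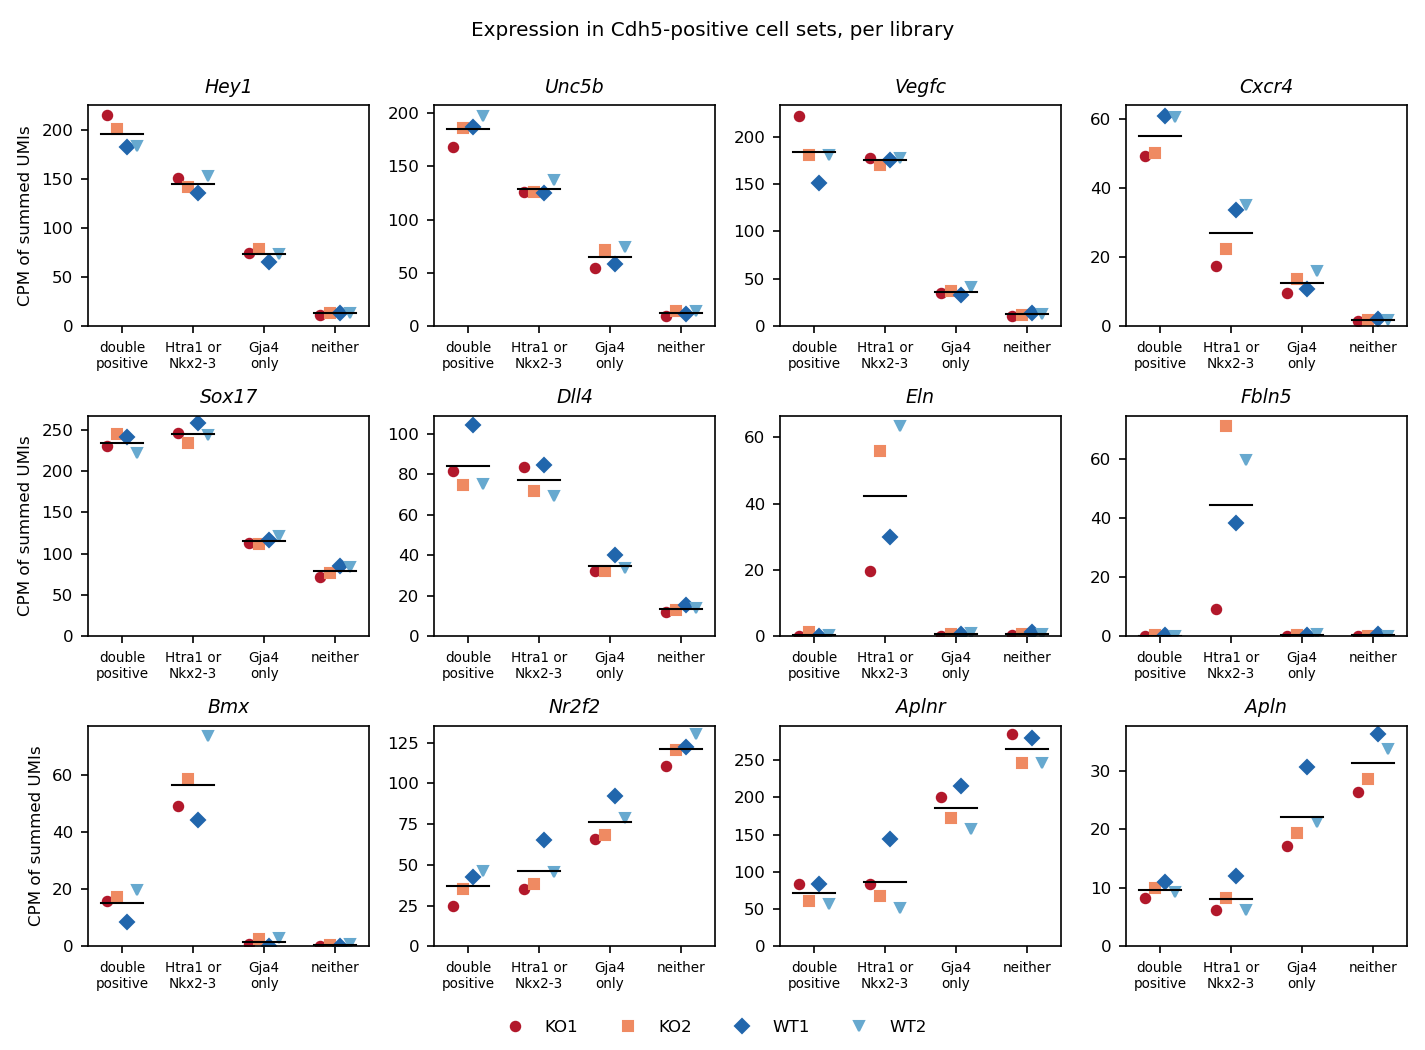
CPM of summed UMIs for 12 genes in 4 sets of Cdh5-positive, Runx1-negative cells (double-positive members; connexin-positive cells with Htra1 or Nkx2-3; cells with Gja4 but no Gja5; cells with neither connexin), per library; black lines are means. Hey1, Unc5b and Cxcr4 were highest in members, Eln, Fbln5 and Bmx in the Htra1 or Nkx2-3 cells, and Nr2f2, Aplnr and Apln in cells with neither connexin.

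Members held fewer transcripts of cell cycle genes. Summed over the S phase list, members had a median of 11.4 and 7.13 UMIs per 10000 in KO and 7.64 and 7.70 in WT, against 23.2 and 18.6 in KO and 21.3 and 18.1 in WT in the other Cdh5-positive cells. For the G2 and M phase list the medians were 6.37 and 4.04 in KO members and 3.81 and 5.12 in WT members. The other cells had 26.6 and 20.6 in KO and 24.8 and 21.6 in WT. All 27 S phase genes and all 23 G2 and M phase genes were lower in members in all 4 libraries, with median log2 ratios of -0.79 and -0.75. The share of all genes lower by any amount in all 4 libraries was 35.5%. The connexin-positive cells with Htra1 or Nkx2-3 lay near the members, with S phase medians of 12.3 and 9.70 in KO and 8.80 and 7.46 in WT, and G2 and M phase medians of 5.98 and 4.70 in KO and 5.65 and 3.83 in WT. Top2a, the mitotic topoisomerase, was seen at 5000 UMIs in 20.6% to 27.2% of members and in 48.8% to 54.0% of the other cells. Cdkn1c (p57), a cyclin-dependent kinase inhibitor, had 2036 and 1911 CPM in KO and 1722 and 1563 CPM in WT in members, against 429 and 465 CPM in KO and 462 and 414 CPM in WT in the other cells. Another such inhibitor, Cdkn1a (p21), was lower in members, at 4.75 to 6.92 against 12.2 to 21 CPM. Members were also shallower than the other Cdh5-positive cells, whose median depths were 19674 to 32089 UMIs; the part of depth in the per-cell medians was not tested.

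**Figure D3:**
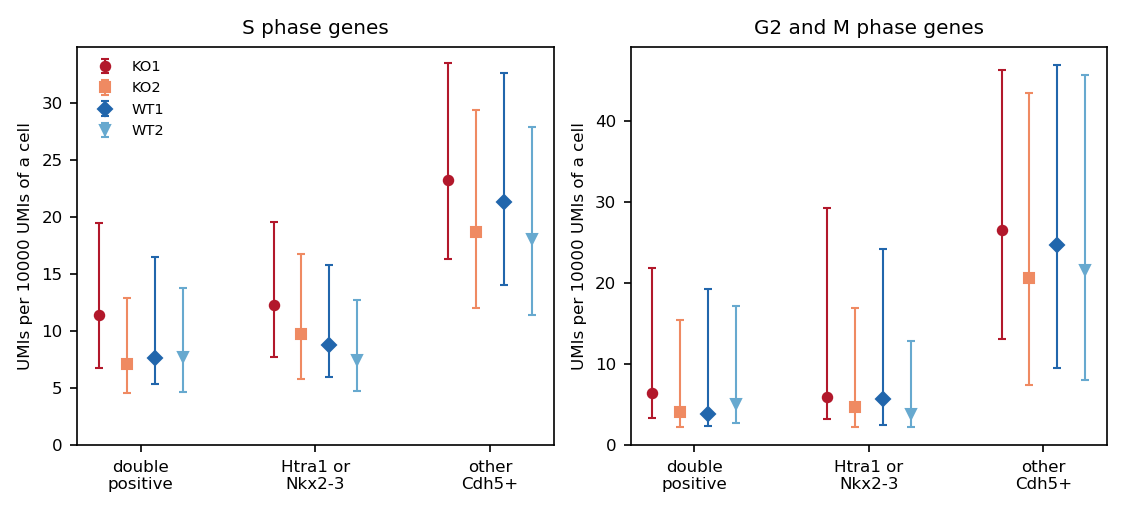
UMIs of S phase genes (left) and of G2 and M phase genes (right) per 10000 UMIs of a cell, in double-positive cells, in connexin-positive cells with Htra1 or Nkx2-3 and in all other Cdh5-positive cells (which include the second set); points are medians over cells and bars run from the 25th to the 75th percentile. In each library the members' median lay below that of the other Cdh5-positive cells, at 3.81 to 6.37 against 20.6 to 26.6 for G2 and M phase.

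The connexin-positive cells with Htra1 or Nkx2-3, 245 and 311 in KO and 77 and 381 in WT, met the connexin part of the rule but not its other part. Against them, 18 of 8149 genes (0.221%) were 2-fold higher in members in all 4 libraries and 132 (1.62%) were 2-fold lower. Genes of elastic fibres were among the lower ones. Eln (elastin) had 0 and 1.15 CPM in KO and 0 and 0.387 CPM in WT members, against 19.8 and 55.9 CPM in KO and 29.9 and 63.4 CPM in WT cells with Htra1 or Nkx2-3. Fbln5 (fibulin-5), which assembles elastic fibres, had 0 to 0.577 CPM in members and 9.43 to 71.3 CPM in the other set, and Fbn1 (fibrillin-1) had 12.2 to 25.8 and 121 to 172 CPM. Of 24 matrix genes at 10 CPM, 7 were 2-fold lower in members in all 4 libraries and 0 were 2-fold higher.

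Of 32 arterial identity genes, 10 were 2-fold lower in members than in these cells in all 4 libraries and 1, Igfbp3, was 2-fold higher. The shares over all genes were 1.62% and 0.221%. Bmx, an arterial tyrosine kinase, had 15.9 and 17.2 CPM in KO and 8.59 and 19.7 CPM in WT members and 49.02 and 58.8 CPM in KO and 44.1 and 73.7 CPM in WT cells with Htra1 or Nkx2-3. Hey2, the partner of Hey1, had 19.8 and 15.1 CPM in KO and 7.27 and 15.01 CPM in WT members and 58.7 and 70.5 CPM in KO and 51.4 and 74.6 CPM in WT cells of the other set, so the Hey genes ran in opposite directions (log2 ratios of 0.43 for Hey1 and -2.14 for Hey2). Jag1 was lower in members (-1.67, range -2.04 to -1.45), as were Vwf (von Willebrand factor, -1.71, range -1.96 to -1.50), Edn1 (endothelin-1, -2.00, range -2.24 to -1.65) and Tmem100 (-1.69, range -1.84 to -1.46). Dll4, Sox17, Mecom and Vegfc had mean log2 ratios between -0.11 and 0.11 and did not keep one sign over the libraries.

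Of 9 sprouting genes, 7 were higher in members than in the Htra1 or Nkx2-3 cells in all 4 libraries and 1 was lower. Of all 8149 genes, 1389 (17.0%) were higher in all 4 and 2506 (30.8%) were lower. Igfbp3, an insulin-like growth factor binding protein, had 479.8 and 503 CPM in KO and 746 and 515 CPM in WT members and 165 and 222 CPM in KO and 340.2 and 223 CPM in WT cells of the other set. Esm1, a tip cell marker, had 50.8 and 46.1 CPM in KO and 69.7 and 48.4 CPM in WT members and 9.43 and 12.2 CPM in KO and 20.1 and 19.6 CPM in WT cells of the other set. Gja1 (1.56, range 1.34 to 1.80), the glucose transporter gene Slc2a1 (1.40, range 1.32 to 1.55) and Msx1 (1.34, range 1.09 to 1.75) were also over 2-fold higher in every library. Cxcr4 was higher in every library but by less than 2-fold in at least 1 of them (1.05, range 0.78 to 1.44). Against cells with Gja4 but no Gja5, 102 of 7920 genes (1.29%) were 2-fold higher in members in all 4 libraries and 17 (0.215%) were lower, and the 27 arterial identity genes had a median log2 ratio of 1.25. All 27 of these genes were higher in members in all 4 libraries, and all 27 S phase and 23 G2 and M phase genes were lower in all 4. Of all 7920 genes, 30.3% were higher and 31.6% lower in all 4.

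Markers of other cell types differed by list, and their part in the results was not tested. The blood list summed to 46.5 and 62.6 CPM in KO members and 43.9 and 65.5 CPM in WT members, against 49.8 and 56.5 CPM in KO and 48.0 and 49.2 CPM in WT in the other Cdh5-positive cells. Of its 14 genes, 5 (Ptprc, which encodes CD45, Itgam, Cd52, Cd53 and Ctss) had 0 UMIs in all members. The mesenchymal list summed to 38.3 and 21.1 CPM in KO and 32.4 and 39.7 CPM in WT, against 125 and 58.3 CPM in KO and 195 and 44.4 CPM in WT in the other Cdh5-positive cells and 2448 to 4319 CPM in the mesenchymal cells. The smooth muscle and pericyte list was higher in members, at 434 and 392 CPM in KO and 301 and 413 CPM in WT, against 202 and 223 CPM in KO and 195 and 229 CPM in WT in the other cells. Its genes Tagln and Myl9 were 2-fold higher in members in all 4 libraries. The neural list was higher too, at 582 and 781 CPM in KO and 516 and 784 CPM in WT, against 267 and 309 CPM in KO and 275 and 306 CPM in WT in the other cells. Stmn2, with 353 to 625 CPM in 76.7% to 80.9% of members, and Nes, with 128 to 161 CPM, made up most of it. The connexin-positive cells with Htra1 or Nkx2-3 lay near the members in both lists. Their smooth muscle and pericyte list summed to 392 and 482 CPM in KO and 326 and 381.5 CPM in WT. Their neural list summed to 629 and 856 CPM in KO and 669 and 828 CPM in WT. Erythroid genes summed to 1766 and 64.8 CPM in KO members and 8484 and 1677 CPM in WT members, against 3783 and 579.8 CPM in KO and 4467 and 158.4 CPM in WT in the other cells. In 3 libraries nearly all of these UMIs (92.2% to 97.4%) lay in 1 KO and 3 WT cells with over 1% erythroid UMIs each. Up to 51.3% of the UMIs of such a cell were erythroid. The endocardial list summed to 155 and 117 CPM in KO and 118 and 144 CPM in WT members, against 53.4 to 60.3 CPM in the other cells. The neural capillary list summed to 660 and 599 CPM in KO and 732 and 545 CPM in WT members, against 315 to 343 CPM. Of 4 neural capillary genes at 10 CPM, 1 (Slc2a1) was higher in all 4 libraries and 2 were lower. By any amount in all 4 libraries, 35.4% of all genes were higher and 35.5% lower. Cells with Htra1 or Nkx2-3 had 158 to 201 CPM of the endocardial list. The hemogenic list summed to 799 and 808 CPM in KO and 803 and 815 CPM in WT members. It summed to 564 to 626 CPM in the other cells and 964 to 1182 CPM in cells with Htra1 or Nkx2-3. Of 10 hemogenic genes at 10 CPM, 5 were higher in members in all 4 libraries and 2 were lower, beside the same 35.4% and 35.5%. Mecom, one of its genes, is also on the arterial identity list.

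Few genes differed between KO and WT members. The test was edgeR's quasi-likelihood test on UMI sums per library, with Benjamini-Hochberg adjustment over 11120 genes. At an adjusted p under 0.05, 2 genes were higher in KO (0.018% of genes tested) and 3 were lower (0.027%), and 194 had an unadjusted p under 0.05. DESeq2 called 6 genes, 4 of them shared. Without KO replicate 2, 23 genes were called, and without WT replicate 2, 13; in such fits the lone library is assumed to vary like the other genotype. With cells thinned to 5000 UMIs, or with a stricter cell filter (2000 genes, 5% mitochondrial), only Wdfy1 of the 5 was still called. The stricter filter left 33 and 49 KO and 8 and 178 WT members. Every one of the 5 was on a list drawn up from earlier results of these same libraries, so the calls are not independent evidence.

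Wdfy1, which encodes an endosomal protein that binds phosphoinositides, had 53.3 and 56.9 CPM in KO and 10.6 and 10.2 CPM in WT members. Both KO libraries lay about 5-fold above both WT libraries, and UMIs were spread over 54.8% and 62.4% of KO members against 24.3% and 16.9% of WT members. The log2 fold change was 2.42 ± 0.198 SE, with an edgeR adjusted p of 0.000334. The gene lies at chr1:79702262-79776143, minus strand, in GRCm38, and overlaps Mrpl44 and Gm10555 on the other strand, whose reads cannot be told apart if counting ignored strand. In the other Cdh5-positive cells it had 49.8 and 51.6 CPM in KO and 9.21 and 9.85 CPM in WT, a log2 fold change of 2.42 ± 0.135 SE (edgeR adjusted p = 0.0106).

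Npw, which encodes neuropeptide W, had 14 and 37 UMIs in KO members and 0 and 2 UMIs in WT members. It was seen in 7.11% and 6.81% of KO members, 1 to 3 UMIs in each. The ratio of summed UMIs per UMI sequenced was 27.9, with a 95% counting interval of 7.34 to 237, and the edgeR adjusted p was 0.0445. DESeq2 gave an adjusted p of 0.253, and the call was also lost without KO replicate 2 (0.216) and without WT replicate 2 (0.167). With doublets removed, the adjusted p of Npw was 0.0541. The gene is at chr17:24657330-24658457, minus strand. In the other Cdh5-positive cells it had 2.45 and 3.01 CPM in KO and 0.113 and 0.0625 CPM in WT.

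Mxra7, linked by name to matrix remodelling, had 18.1 and 17.9 CPM in KO and 56.2 and 56.1 CPM in WT members. The KO libraries lay at about a 3-fold lower level and agreed closely with each other, as did the WT libraries. Its log2 fold change was -1.64 ± 0.182 SE (edgeR adjusted p = 0.00505). Mettl23, a methyltransferase gene, had 25.5 and 28.3 CPM in KO and 64.1 and 66.1 CPM in WT members, a log2 fold change of -1.26 ± 0.172 SE (edgeR adjusted p = 0.0210). Without KO replicate 1 the adjusted p of Mettl23 was 0.0879. Both are on chromosome 11, Mxra7 at chr11:116803062-116828046 and Mettl23 at chr11:116843278-116854263. Mettl23 overlaps Jmjd6 and Srsf2 on the other strand and Mfsd11 on its own.

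Rnaset2b, a ribonuclease T2 gene, had 1.98 and 0.807 CPM in KO and 8.92 and 10.5 CPM in WT members, a log2 fold change of -3.03 ± 0.411 SE (edgeR adjusted p = 0.0210). Without WT replicate 2 its adjusted p was 0.0685, and with doublets removed 0.0561. Its near-identical copy Rnaset2a had 5.95 and 13.3 CPM in KO and 9.91 and 8.52 CPM in WT members, a log2 fold change of 0.20 ± 0.320 SE. Reads may be split between the copies, so the value of either gene alone is uncertain. Marveld2, which encodes a tight junction protein, had the next smallest p among higher genes, with 6.81 and 8.53 CPM in KO and 2.31 and 2.61 CPM in WT members and a log2 fold change of 1.63 ± 0.336 SE (edgeR adjusted p = 0.371). Of other genes named earlier in these libraries, Zfp945 had -1.44 ± 0.239 SE (edgeR adjusted p = 0.0862) and Cacna1e 2.30 ± 0.485 SE (edgeR adjusted p = 0.397), so neither passed.

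Most of these genes also lay apart in the other Cdh5-positive cells. There 2 of 15786 genes were higher in KO (0.0127%), Wdfy1 and Npw, and 2 were lower (0.0127%), Mxra7 and Rnaset2b. Mettl23 had 30.1 and 29.7 CPM in KO and 60.6 and 61.3 CPM in WT in those cells, a log2 fold change of -1.01 ± 0.117 SE with an edgeR adjusted p of 0.186. The test of the difference between the cell sets gave adjusted p values of 0.785 for Mxra7 and 1.0 for the other 4 genes. None of the 5 was shown to differ between the cell sets. Without KO replicate 2, Mxra7, Npw and Rnaset2b were no longer called in the other Cdh5-positive cells.

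**Figure D4:**
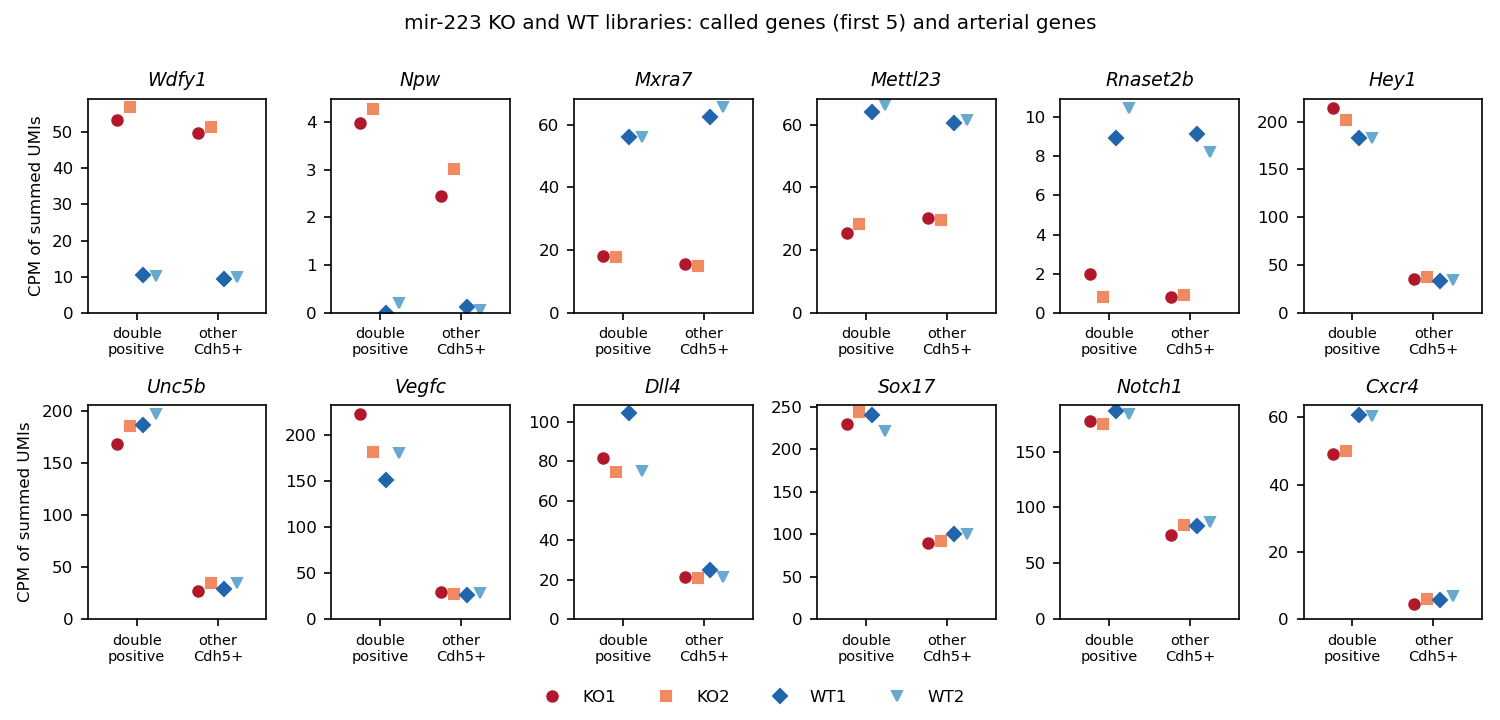
CPM of summed UMIs in KO (circles, squares) and WT (diamonds, triangles) libraries, in double-positive cells and in all other Cdh5-positive cells, for the 5 genes called in members and 7 arterial genes. Wdfy1 and Npw were higher and Mxra7, Mettl23 and Rnaset2b lower in both KO libraries in both cell sets, while the arterial genes differed between cell sets more than between genotypes.

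No arterial gene passed the test between genotypes in members. Hey1 had a log2 fold change of 0.19 ± 0.138 SE, Unc5b of -0.11 ± 0.141 SE and Vegfc of 0.28 ± 0.158 SE, each KO over WT, with adjusted p values of 1.0. Dll4 had 81.7 and 74.5 CPM in KO and 104 and 75.2 CPM in WT members, with WT replicate 1 alone high, a log2 fold change of -0.19 ± 0.179 SE. Notch1 (-0.07 ± 0.138 SE), Notch4 (-0.23 ± 0.178 SE), Jag1 (0.11 ± 0.256 SE) and Hey2 (0.50 ± 0.292 SE) had adjusted p values of 1.0 as well. Sox17 (0.04 ± 0.138 SE), Efnb2 (-0.17 ± 0.147 SE), Nrp1 (0.05 ± 0.143 SE) and Cxcl12 (-0.36 ± 0.469 SE) did too. Jag1, Sox17, Nrp1, Dll4, Notch4 and Cxcl12 changed sign when 1 library was left out.

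Among these genes, with Cxcr4 and Nr2f2 added, 7 did not overlap between the genotypes. Both KO libraries lay above both WT libraries for Hey1, Hey2 and Vegfc, and below them for Unc5b, Notch1, Cxcr4 and Nr2f2. The genotypes overlapped for Dll4, Notch4, Jag1, Sox17, Efnb2, Nrp1 and Cxcl12. For Hey2 the gap was narrow, with 15.11 CPM in KO replicate 2 and 15.01 CPM in WT replicate 2. Over all genes tested, 11.7% had both KO libraries above both WT libraries and 13.0% had both below, so such a gap is common in these 4 libraries. Cxcr4 had 49.1 and 49.9 CPM in KO and 60.8 and 60.5 CPM in WT members, a log2 fold change of -0.29 ± 0.161 SE. Nr2f2 had 24.95 and 35.4 CPM in KO and 42.3 and 46.5 CPM in WT members, a log2 fold change of -0.53 ± 0.201 SE and an edgeR unadjusted p of 0.0207. Neither passed after adjustment (edgeR adjusted p = 1.0 for both).

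Apart from the list drawn up from these libraries, no gene list held a call in members. Of 32 arterial identity genes tested, 0 passed, 16 had a positive log2 fold change and 16 a negative one, and the median was 0.01, against 0.00 over all genes. Both KO libraries lay above both WT libraries for 3 of them and below for 5. Of 21 Notch pathway genes 0 passed, with a median of -0.06. All 6 sinusoidal genes tested had negative values and a median of -1.16, and 3 of them had an unadjusted p under 0.05, among them Stab2, a scavenger receptor, with 3.69 and 7.15 CPM in KO and 12.2 and 14.3 CPM in WT members. None of the 6 passed. Over all genes 5550 of 11120 had negative values and 194 had an unadjusted p under 0.05. Among other Cdh5-positive cells all 8 sinusoidal genes tested were negative, 5 with an unadjusted p under 0.05, at a median of -0.65. In members the list summed to 97.0 and 130.2 CPM in KO and 157.6 and 157.4 CPM in WT. In sums over cells, fewer cells with a transcript and less transcript per cell cannot be told apart. The counts per cell of these genes were not compared between genotypes.

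The S phase and cholesterol lists held more positive than negative values, with no call, and other lists leaned the other way. Of 27 S phase genes 23 had positive values, with a median of 0.13, and of 20 cholesterol genes 18 did, with a median of 0.12. Outside the members, 24 of the 27 and 16 of the 20 were positive in Cdh5-positive cells. Of 12 sprouting genes 11 were negative in members (median -0.28). So were 19 of 25 SoxF, ETS and arterial transcription factors (-0.09) and 16 of 21 matrix genes (-0.19). Over all 11120 genes tested, 5570 were positive and 5550 negative. The sprouting list summed to 836 and 887 CPM in KO and 1321 and 893 CPM in WT members, with WT replicate 1 alone high. KO replicate 1 was lowest for the matrix list (5306 and 6353 CPM in KO, 6612 and 6610 CPM in WT). It was also lowest for the transcription factors (2615 and 2989 CPM in KO, 3157 and 2968 CPM in WT). It was highest for cholesterol genes (1644 and 1395 CPM in KO, 1419 and 1349 CPM in WT). KO replicate 1 had the highest S phase sum, 1716 CPM, against 1344 CPM in KO replicate 2 and 1413 and 1333 CPM in the WT libraries. Of 25 described miR-223 targets tested, 9 had positive and 16 negative values, the median was -0.04 and 0 passed by edgeR, at an adjusted or an unadjusted p under 0.05. Mef2c, a target known from myeloid progenitors, had 155 and 188 CPM in KO and 183 and 196 CPM in WT members. Igf1r, the receptor of insulin-like growth factors, had 50.8 and 66.8 CPM in KO and 75 and 67.4 CPM in WT members.

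Acta2, the smooth muscle actin gene, was high in KO replicate 1 and low in the other 3 libraries. It had 87.3 and 3.23 CPM in KO and 1.65 and 6.49 CPM in WT members, and 50.3% of its 308 UMIs in KO replicate 1 came from 1 cell and the rest from 14 others. The log2 fold change was 3.08 ± 2.34 SE and did not pass (edgeR adjusted p = 1.0). Without KO replicate 2 it was 4.14 and passed (adjusted p = 1.61e-09), and without KO replicate 1 it was -0.56.

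The difference of the KO effect between members and the other Cdh5-positive cells was tested for 14843 genes. No gene had a higher KO effect in members (0.0%), 4 had a lower one (0.0269%), and 425 had an unadjusted p under 0.05. Among the 4 were Hbb-bs, a beta globin of red cells, AC167229.1 and Igfbp5, an insulin-like growth factor binding protein. Hbb-bs had 1 and 0 UMIs in KO members and 25 and 29 UMIs in WT members, and 14 of the 25 and 22 of the 29 came from 1 cell each. When cells with over 1% erythroid UMIs were removed, 2 calls remained, AC167229.1 and Igfbp5. Without KO replicate 1 a single gene was called, and without WT replicate 2, 68 were; neither fit called AC167229.1 or Igfbp5. For AC167229.1, 12 of the 17 UMIs in KO replicate 2 and 13 of the 22 in WT replicate 1 came from 1 cell each. For Igfbp5, 84.4% of the UMIs in WT replicate 1 came from 1 cell. When every cell was thinned to 5000 UMIs, 0 genes were called by edgeR and 429 had an unadjusted p under 0.05.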

How the data were processed

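The 10x libraries of sorted CD31-positive, CD45-negative cells were given as filtered matrices of UMI counts per gene and cell, made with Cell Ranger 3.1.0 per the file headers; Seurat 4 is named in the submitters' processing notes. Aligner settings and the build used: not given in the sources used here. Gene positions come from GENCODE M21 (GRCm38). From these deposited counts, 31053 genes were read, and a cell needed 1000 detected genes and a mitochondrial share below 10%. UMIs were summed per library and cell set. KO and WT sums were compared with edgeR 4.0.16 in R 4.3.3 (quasi-likelihood, TMM scaling, filter on low counts), with DESeq2 1.42.0 as an alternative. The difference of the KO effect between cell sets was the interaction term of a fit on 8 sums with library as a block. Members against other cells are described by log2 ratios of CPM, with 1 CPM added, and no test. Doublets were scored with Scrublet in scanpy 1.11.5, at a rate of 0.8% per 1000 barcodes. Intervals are exact binomial (scipy 1.17.1). Genes were named by rank: called genes, up to 10 in each direction, 20 higher and 12 lower in members by the ratio of the library nearest to 0, and members of vessel lists. The cells and the 33 gene lists were chosen with earlier results of these data known. The scripts were tested on simulated data. Other alternatives were leaving out each library, RLE scaling, no filter, removing doublets, thinning, a stricter cell filter, and 2 UMIs of each connexin. Removing cells with over 1% erythroid UMIs was chosen after seeing the data. Single-gene results of a few genes are not reported here, though these genes stay in every fit and count.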

Additional observations from a re-analysis of the deposited data

Results flagged for a closer look

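For the 3 genes given here, the test of the difference itself found the KO effect in double-positive cells to be lower than in the other Cdh5-positive cells (edgeR interaction term, Benjamini-Hochberg adjustment). For Hbb-bs the difference was -4.74 on the log2 scale, with 1 and 0 UMIs in KO and 25 and 29 UMIs in WT double-positive cells. For AC167229.1 it was -2.14, with 1 and 17 UMIs in KO and 22 and 121 UMIs in WT, and 1 cell gave 12 of the 17 and 1 cell 13 of the 22. For Igfbp5 it was -1.25, with 16 and 40 UMIs in KO and 45 and 100 UMIs in WT, and 38 of the 45 UMIs in WT replicate 1 came from 1 cell. All 3 calls were lost after thinning to 5000 UMIs and without KO replicate 1. Hbb-bs was also lost with erythroid-rich cells or doublets removed, Igfbp5 with doublets removed and without KO replicate 2, and both AC167229.1 and Igfbp5 without WT replicate 2 and under the stricter cell filter.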

How the results depend on the processing

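In double-positive cells the main counts were 2 genes higher and 3 lower in KO. They were 5 and 23 with no low-count filter, 1 and 5 by DESeq2, 1 and 0 after thinning, 1 and 1 under the stricter cell filter, and 1 higher with doublets removed or with 2 UMIs of each connexin. Leaving out 1 library gave 2 to 5 higher and 4 to 18 lower. In the other Cdh5-positive cells (2 and 2) the counts were 19 and 29 with no filter, 16 and 18 by DESeq2, and 1 to 9 and 2 to 12 without 1 library. For the difference of the KO effect (0 and 4) they were 1 and 7 with no filter, 0 and 8 with doublets removed, 0 and 0 after thinning, 4 and 20 under the stricter filter, 4 and 8 with 2 UMIs of each connexin, 0 and 2 without erythroid-rich cells, and 0 to 30 and 1 to 38 without 1 library. The causes were not tested.

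With replicate number as a block, 9 genes were lower in double-positive cells, and 17 were higher and 22 lower in the other Cdh5-positive cells. The labels name no shared litter, batch or day for a number. Same-numbered libraries deviated together at 0.378 over 6531 genes, but with 2 libraries a group the deviations mirror each other, so this cannot settle the pairing.

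The share difference was -0.357 points under the stricter filter, and -1.378 to 1.55 without 1 library. Genes 2-fold higher in members (183) were 32 under the stricter filter and 188 to 202 without 1 library. Genes 2-fold lower (36) were 91 with doublets removed, 118 after thinning, 6 under the stricter filter, 75 with 2 UMIs of each connexin, 103 by means over cells, and 42 to 57 without 1 library.

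The stricter filter left 33 and 49 KO and 8 and 178 WT members, so its values rest on few cells. KO over WT log2 values that changed sign under the stricter filter were Unc5b (0.17), Hey2 (-0.43), Dll4 (0.061), Jag1 (-0.64), Notch1 (0.25), Sox17 (-0.063), Efnb2 (0.068) and Cxcl12 (0.20). After thinning these were Jag1 (-0.50), Nrp1 (-0.041) and Rnaset2a (-0.11), and with 2 UMIs of each connexin Notch1 (0.0090). Without 1 library the values ran from -0.42 to 0.058 for Dll4, -0.20 to 0.71 for Jag1, -0.46 to 0.016 for Notch4, -0.019 to 0.11 for Sox17, -0.035 to 0.13 for Nrp1, -1.41 to 0.23 for Cxcl12, -0.56 to 4.61 for Acta2 and -0.60 to 0.56 for Rnaset2a. Npw rested on 51 KO and 2 WT UMIs in all.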
